A study of Homo sapiens with 6 samples.

Results

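The HEK293T list of UCHL1 peaks held 382 peaks on chromosomes 16 and 17, and 338 of them lay in the arms of these chromosomes, away from telomeres and centromeres. These 338 peaks, 211 on chromosome 16 and 127 on chromosome 17, are described here. They were chosen by position alone, as peaks more than 500 kb from either chromosome end in hg19 and more than 3 Mb from any run of at least 2.9 Mb of undetermined bases. The whole list held 2196 peaks, and the 3 lists of the series together held 6813. The 2 chromosomes were singled out after the peak counts were known, so the number of peaks on them is given as a description only.

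UCHL1 was immunoprecipitated from HEK293T cells, an embryonic kidney line that carries the SV40 T antigen and has features of neuronal lineage, and from DU 145, a prostate cancer line from a brain metastasis. HEK293T cells and the first DU 145 sample were cross-linked with DSP, a protein-to-protein cross-linker, at 1 mM followed by formaldehyde, and are called dual cross-linked. The second DU 145 sample received formaldehyde at 1% only. Each condition had 1 ChIP library, called against its own input library, so no value below has a replicate check and none was tested between conditions. Per the study's methods, dual cross-linked chromatin was cut with MNase mainly to mononucleosomes, whereas the formaldehyde chromatin was sonicated, so the DU 145 formaldehyde list differs from the HEK293T list in cell line, cross-linking and fragmentation. Between the dual cross-linked lists, cell line and library cannot be told apart. The labels and the study's methods give DSP for HEK293T, whereas a figure caption of the study lists HEK293T with formaldehyde alone. If that caption holds, cross-linking differs between these lists as well. The cell lines' identity could not be checked from peak positions. The lists hold no library totals and the study gives reads per cell line only, over ChIP and input libraries together, so the depth of each library is unknown, and the number of tags, which are the reads counted in a peak, was not scaled. The 338 peaks held 6293 tags together.

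UCHL1 is a ubiquitin C-terminal hydrolase that is abundant in neurons and is switched on in many tumors. Telomeres end in repeats of TTAGGG, which the shelterin proteins TRF1 and TRF2 bind, and short stretches of the same repeat occur inside chromosomes as interstitial telomeric sequences. Chromosomes 16 and 17 are small and rich in genes, with long stretches of closely packed housekeeping genes that are GC-rich and often close to the chromosome ends.

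The sequences of a few HEK293T peaks are shown because the kinds of sequence differed. All are from the plus strand of hg19, the build of the lists, and span the whole deposited peak. Capitals mark runs of at least 3 C or 3 G. The MAZ peak at chr16:29820354-29820551, the SNHG19 peak at chr16:2204890-2205031, which lies upstream of TRAF7, and the CDK10 peak at chr16:89760179-89760295 were in annotated exons outside annotated untranslated regions, and all had a fold enrichment of 24.85. The SENP3 peak at chr17:7465790-7465900 was intronic, 609 bases after the gene's start.
MAZ: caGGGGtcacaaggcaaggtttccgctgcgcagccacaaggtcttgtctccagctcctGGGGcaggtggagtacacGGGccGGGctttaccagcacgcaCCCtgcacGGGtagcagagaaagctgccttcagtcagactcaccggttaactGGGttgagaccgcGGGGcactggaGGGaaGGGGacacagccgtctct
SNHG19: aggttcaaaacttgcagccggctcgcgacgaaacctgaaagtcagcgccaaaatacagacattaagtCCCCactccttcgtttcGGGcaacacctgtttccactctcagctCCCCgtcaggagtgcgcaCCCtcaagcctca
CDK10: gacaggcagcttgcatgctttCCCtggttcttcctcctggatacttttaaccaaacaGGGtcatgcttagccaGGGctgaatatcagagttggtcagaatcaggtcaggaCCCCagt
SENP3: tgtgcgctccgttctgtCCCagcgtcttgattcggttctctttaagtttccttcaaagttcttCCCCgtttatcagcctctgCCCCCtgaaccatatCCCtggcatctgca
None of these 4 held the telomeric repeat, and the 50 bases at each summit occurred once in hg19. The last pair shows members made of short tandem units. The CPNE7 peak is chr16:89654418-89654656, and the 50 bases at its summit occurred at 3 places in hg19. The SLC38A10 peak is chr17:79223177-79223326, and was the only member with a polypurine run, defined as 30 or more purines in a row, or as many pyrimidines, of which 20% or more are G (or C), in a peak free of the telomeric repeat.
CPNE7: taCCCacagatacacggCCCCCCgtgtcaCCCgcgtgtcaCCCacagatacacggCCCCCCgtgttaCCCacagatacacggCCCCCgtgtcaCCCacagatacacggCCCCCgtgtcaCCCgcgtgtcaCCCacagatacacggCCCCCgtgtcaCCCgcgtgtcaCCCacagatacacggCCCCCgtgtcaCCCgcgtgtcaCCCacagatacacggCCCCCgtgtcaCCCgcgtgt
SLC38A10: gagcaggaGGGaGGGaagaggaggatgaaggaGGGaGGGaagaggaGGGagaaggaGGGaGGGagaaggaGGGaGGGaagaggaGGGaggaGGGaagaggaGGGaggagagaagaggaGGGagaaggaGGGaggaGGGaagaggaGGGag

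HEK293T peaks were several times denser on these chromosomes than elsewhere, and DU 145 peaks were not to the same degree. The arms of chromosomes 16 and 17 that satisfy the position rule measured 143.45 Mb, which is 5.26% of all such sequence and holds 10.0% of protein-coding gene starts. They held 21.6% of the HEK293T peaks chosen by the same rule on all chromosomes. This is 2.36 peaks per Mb, against 0.475 per Mb for the 1227 peaks on the other chromosomes. In DU 145, the same arms held 85 dual peaks at 0.593 per Mb, against 0.459 elsewhere, and 241 formaldehyde peaks at 1.68 per Mb, against 1.01 elsewhere. By HEK293T peaks per Mb, chromosome 16 had 2.92 and chromosome 17 had 1.78, ranks 2 and 4 of the chromosomes. Chromosome 19 had rank 1 with 3.79 and chromosome 13, which is poor in genes, rank 3 with 2.45. At the boundaries of the rule, the last peak inside on the right arm of chromosome 17 had a fold enrichment of 6.02 with 62 tags, and the first outside had 18.89 with 9 tags. On the left arm of chromosome 16, the first peak inside had a fold enrichment of 13.22 with 8 tags, and the next outside had 16.57 with 9 tags. The rule left out 44 peaks, whose median fold enrichment was 11.1.

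Along the 2 chromosomes, the HEK293T peaks lay almost entirely where genes are most crowded. The arms were divided into 145 windows of 1 Mb, and the 29 windows with most protein-coding gene starts had at least 22 starts per Mb, against a median of 10. These windows cover 19.4% of the sequence and held 302 of the 338 HEK293T peaks (89.3%, 95% Wilson interval 85.6 to 92.2). The DU 145 peaks did not share this placement. The same windows held 19 of 85 dual peaks (22.4%, 14.8 to 32.3) and 50 of 241 formaldehyde peaks (20.7%, 16.1 to 26.3). From the least to the most gene-dense 29 windows, the HEK293T peaks numbered 3, 4, 5, 24 and 302. The DU 145 dual peaks numbered 7, 19, 22, 18 and 19, and the formaldehyde peaks 45, 47, 47, 52 and 50. Among HEK293T peaks of the other chromosomes, 558 of 1227 (45.5%) lay in the most gene-dense windows of those chromosomes, chosen in the same way. All such intervals cover counting error only, and since neighbouring peaks share a place and a library they are not independent.

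**Figure D1:**
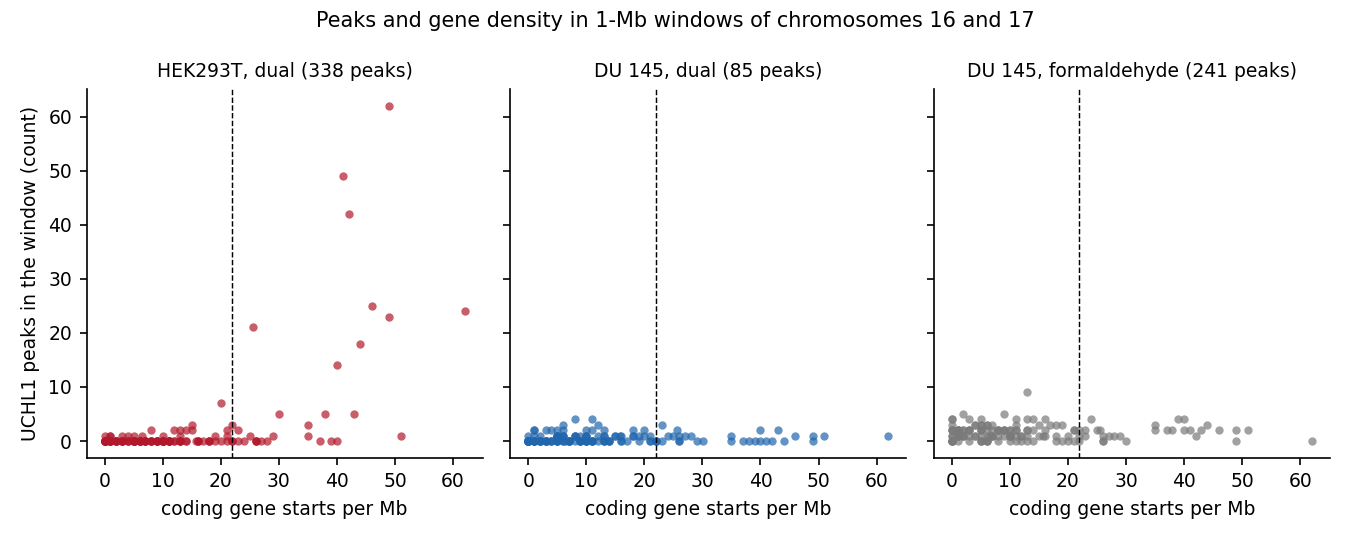
Number of UCHL1 peaks in each 1-Mb window of chromosomes 16 and 17 (y axis) against its protein-coding gene starts per Mb (x axis) for the 3 lists, each point a window. The dashed line marks the lower bound of the 29 most gene-dense windows, at 22 starts per Mb. HEK293T windows reach 62 peaks and all windows with 10 or more lie right of the line, while no DU 145 window exceeds 9.

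Gene density alone did not give the number of peaks in a window. Of the 145 windows, 107 held no HEK293T peak, and 9 windows held 278 peaks. The 5 fullest windows held 202 peaks (59.8%). The window with most, 62 peaks, starts at position 1500001 of chromosome 16 and runs from CLCN7 to CCNF, with 49 gene starts. The adjoining window from TEDC2 to NAA60 had the same 49 gene starts and 23 peaks. On chromosome 17, the most gene-dense window had 62 starts and 24 peaks, and the window from KRTAP4-11 to ZNF385C had 51 starts and 1 peak. Of the 29 densest windows, 11 held no HEK293T peak, among them the window from MSL1 to KRTAP4-9 on chromosome 17 with 40 starts and those from CDH5 to LRRC36 and from TPPP3 to PRMT7 on chromosome 16 with 39 and 37. These windows were named after their counts were seen. In the DU 145 lists, the fullest window held 4 dual and 9 formaldehyde peaks. Over the 145 windows, the Spearman rank correlation between peaks and gene starts was 0.466 for HEK293T, 0.182 for DU 145 dual and 0.0379 for DU 145 formaldehyde, as a description, since windows of 1 chromosome share a library and a base composition.

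Most of the peaks in crowded windows were close to the chromosome ends, with exceptions on both chromosomes. Of the 338 peaks, 226 (66.9%) lay under 5 Mb from an end, a zone that makes up 12.5% of the sequence. In the most gene-dense windows, HEK293T peaks numbered 30.2 per Mb under 5 Mb from an end, 8.80 per Mb between 5 and 10 Mb, and 3.20 per Mb beyond 10 Mb. In the other windows, the values were 1.73, 0.134 and 0.168 per Mb. On chromosome 16, a pair of adjoining windows that start at positions 29500001 and 30500001 held 18 and 25 of the 51 peaks in gene-dense windows beyond 10 Mb. The gene-dense window that starts at 4500001 of that chromosome held 0. On the left arm of chromosome 17, the gene-dense windows that start at 3500001 and 4500001 held 2 and 5 peaks. Those further in, at 6500001 and 7500001, held 24 and 14. Over both chromosomes together, HEK293T peaks were denser in gene-dense than in other windows at each of the 3 distances. They were also densest under 5 Mb from an end at either gene density. For DU 145 dual peaks in the gene-dense windows the order was not the same, with 0.438, 0.800 and 0.752 per Mb, and the formaldehyde peaks gave 1.90, 1.4 and 1.88 per Mb. On the other chromosomes, 258 of 1227 HEK293T peaks (21.0%) lay under 5 Mb from an end, at 1.51 per Mb against 0.402 per Mb beyond. Peaks within 500 kb of an end are not counted in any of these values.

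**Figure D2:**
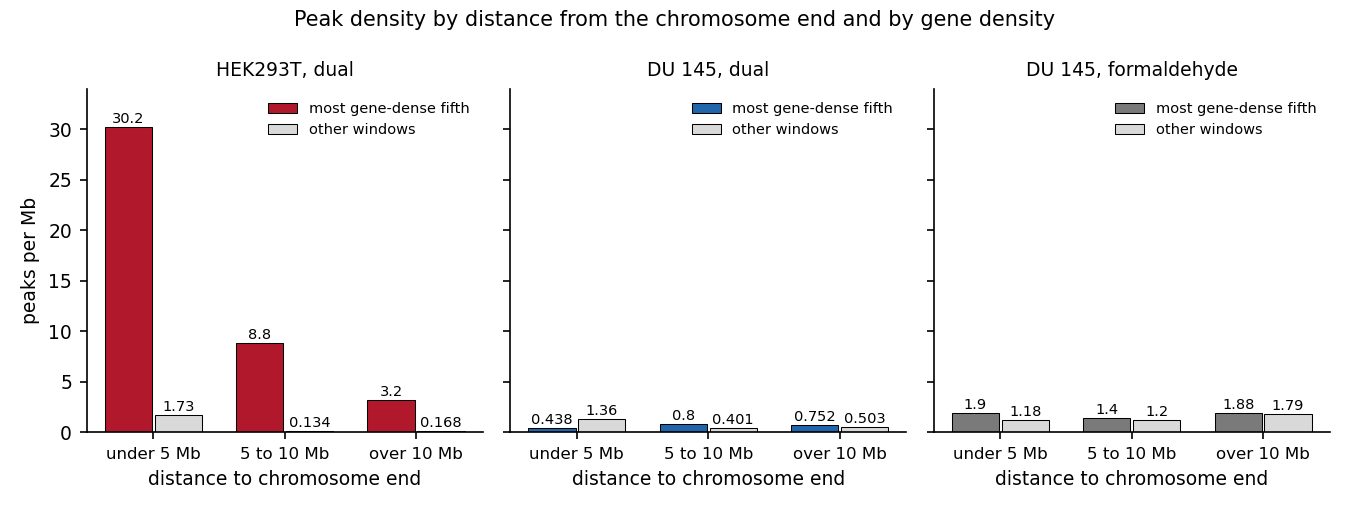
Peaks per Mb of chromosomes 16 and 17 (y axis) by distance to the nearer chromosome end (x axis), in the 29 most gene-dense 1-Mb windows (coloured bars) and the other windows (light bars), for the 3 lists. The HEK293T bars of the gene-dense windows are 30.2, 8.80 and 3.20 per Mb from the end inwards, and every DU 145 bar is at most 1.90.

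Peaks were grouped into clusters of at least 3 with no gap over 100 kb. There were 18 clusters, which held 283 members (83.7%, 79.4 to 87.3) in 5260 kb, 3.67% of the sequence. Of the 27 members with a score of 100 or more, a scale on which the peak caller's p falls as the score rises, 25 lay in these clusters, but when clusters were built from those 27 alone 40.7% were in one (24.5 to 59.3). The same grouping placed 7 of 85 DU 145 dual peaks (8.24%) and 7 of 241 formaldehyde peaks (2.905%) in clusters of their own. The median distance from a HEK293T peak to the nearest other was 5218 bases, and 24.3% had a neighbour within 1 kb. For DU 145 dual peaks 5.88% had a neighbour within 1 kb, and for formaldehyde peaks 0%.

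The largest cluster, chr16:1663204-2337731, held 58 peaks in 675 kb with 41 protein-coding gene starts. In or within 5 kb of RPS2 there were 9 of these peaks. Genes with a start within 1 kb of one of its peaks were E4F1, a transcription factor and ubiquitin ligase, GFER, a sulfhydryl oxidase of the mitochondrial intermembrane space, IGFALS, which carries insulin-like growth factors in serum, RNF151, RPS2, a protein of the small ribosomal subunit, TRAF7, TSC2, which with TSC1 restrains mTORC1, and ZNF598, which ubiquitinates collided ribosomes. Its fold enrichments ran from 7.14 to 24.85 with a median of 14.3. The same interval held 1 DU 145 dual and 2 formaldehyde peaks. Over all the arms these lists had 0.593 and 1.68 peaks per Mb, so few are awaited in an interval of this length. The second, chr16:505488-1553620, held 43 peaks with 45 gene starts, and the genes near them by start were ANTKMT, a mitochondrial lysine methyltransferase, TPSD1, a mast cell tryptase, and UQCC4, an assembly factor of respiratory complex III. Its fold enrichments ran from 4.05 to 24.85, with 1 DU 145 formaldehyde peak and no dual peak inside. The third, chr17:79648505-80213514, held 34 peaks with 30 gene starts, near HGS, which sorts ubiquitinated receptors at endosomes, and the unnamed gene ENSG00000262660. Its fold enrichments ran from 10.26 to 18.13, with 1 DU 145 formaldehyde peak.

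Members lay in genes, in exons more often than the sequence around them, but few lay at gene starts. Sequence was sampled as consecutive tiles of 128 bases, the median member length, over all the arms and within the clusters. By midpoint, 134 members (39.6%, 34.6 to 44.9) were in an exon of any annotated gene, against 9.07% of all tiles and 26.1% of tiles in the clusters. Introns held 159 (47.0%), against 60.9% and 49.7%, and 45 (13.3%) were intergenic, against 30% and 24.2%. Coding sequence held 49 (14.5%, 11.1 to 18.6), against 2.34% of all tiles and 8.67% in clusters. Of the DU 145 peaks, 8 of 85 dual (9.41%) and 6 of 241 formaldehyde (2.49%) were exonic. A protein-coding gene start lay within 1 kb of 35 members (10.4%, 7.54 to 14.1), against 2.43% of all tiles and 8.88% of tiles in the clusters, and within 5 kb of 188 (55.6%), against 36.8% in the clusters.

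Around gene starts, HEK293T peaks were sparse at the start itself and more frequent on both sides of it, from 0.5 to 3 kb upstream and from 0.5 to 3.5 kb downstream. In the 500 bases before the annotated start there were 3 members, 0.389 times the share of cluster tiles, and in the 500 bases after it 5 members, 0.642 times. From 500 to 1000 bases after the start there were 17 (2.37 times), from 1500 to 2000 there were 21 (3.11 times) and from 3000 to 3500 there were 14 (2.45 times). Beyond, from 3500 to 4000, there were 4 (0.739 times). Upstream, the bins from 3000 to 500 bases before the start held 9, 13, 9, 14 and 10 members in order towards it (1.53, 2.03, 1.36, 2.04 and 1.36 times). This gap depended on which start was used. Counted to the nearest start of any transcript of a protein-coding gene, 44 members (13.02%, 9.84 to 17.02) were within 250 bases, against 10.6% of cluster tiles, 54 (15.98%) were between 500 and 1000 bases, against 10.5%, and 78 (23.1%) were between 1 and 2 kb, against 14.4%. Along gene bodies, the 306 pairs of a member and a coding gene that holds it were spread over the whole gene, with 59, 56, 69, 50 and 72 in successive equal parts from start to end. The coding genes that held a member had a median length of 13.9 kb, against 17.9 kb for all coding genes of these arms.

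**Figure D3:**
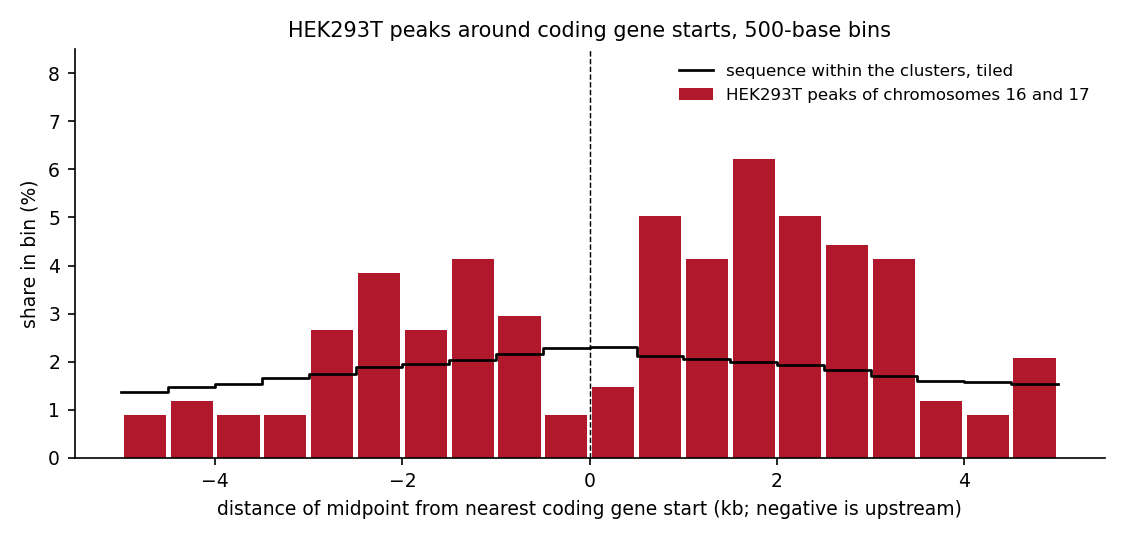
Share of the 338 HEK293T peaks (bars) and of 40690 tiles of cluster sequence (line) in 500-base bins of the signed distance from the midpoint to the nearest protein-coding gene start, in kb. The bars are below the line in the 2 bins beside the start and above it from 0.5 to 3 kb upstream and from 0.5 to 3.5 kb downstream.

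The 10 members of highest fold enrichment near a gene start included CD68, a lysosomal glycoprotein of macrophages, 55 bases after the start with a fold enrichment of 24.85, and a peak in SNHG19, a snoRNA host gene, 739 bases before the start of TRAF7, with the same value. Next were DLG4, a postsynaptic scaffold protein, at 19.33 (987 bases before its start, inside ACADVL), SENP3, a SUMO protease of the nucleolus, at 18.89, RNF151 at 18.48 and TAOK2, a kinase, at 17.44. The remaining 4 were COASY, which makes coenzyme A, at 17.26, YPEL3 at 17.09, and E4F1 and GPS2, a corepressor subunit, both at 16.57. They held 10 to 17 tags each, and 4 of them had an FDR of 5% or less: TRAF7 (1.29%), COASY (2.78%), YPEL3 (3.12%) and CD68 (3.94%).

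Several genes held rows of peaks. In all, 178 protein-coding genes held a member, 112 of them 1, 41 of them 2 and 25 of them at least 3. RPL13, a protein of the large ribosomal subunit, held 9 peaks in a gene of 3.87 kb, and they covered 47.7% of it. From 1.17 to 3.54 kb after the start, their fold enrichments were, in order, 11.04, 22.09, 20.51, 12.82, 11.85, 13.99, 16.57, 16.57 and 19.33, and their tags 9, 44, 26, 20, 19, 11, 13, 9 and 13. No RPL13 peak began within the first 1.17 kb, and all 9 were in annotated exons. Its neighbours by peaks per kb were NDUFB10, a subunit of respiratory complex I, with 3 peaks in 2.44 kb (fold enrichments of 16.57, 22.09 and 16.57) and the adjacent RPS2 with 3 in 2.78 kb (14.62, 19.33 and 13.81). PGP, a phosphatase, held 3 in 3.25 kb (13.81 to 19.33). EIF4A1, the RNA helicase of translation initiation, held 5 in 6.18 kb, between 1.25 and 2.99 kb after the start (16.19, 13.35, 16.19, 19.33 and 16). MAZ, a zinc finger transcription factor, held 4 in 5.06 kb (13.81, 24.85, 16.57 and 15.38). ACTG1, which encodes cytoplasmic gamma-actin, held 5, all in exons, with 4 of them between 12.01 and 12.72 kb after the annotated start and fold enrichments from 15.38 to 22.09. In longer genes, MAPK8IP3, a scaffold of JNK signalling in neurons, held 8 in 64.2 kb (11.09 to 16.48), TSC2 held 6 in 41.5 kb (7.14 to 16.57) and SRCAP, a chromatin remodeling ATPase, held 5 in 43.2 kb (9.42 to 13.50). An FDR of 5% or less was reached by 4 of 9 peaks in RPL13, 1 of 3 in NDUFB10, 0 of 3 in RPS2 and 1 of 3 in PGP. It was reached by 2 of 5 in EIF4A1, 2 of 4 in MAZ and 2 of 5 in ACTG1. In the longer genes these were 3 of 8 in MAPK8IP3, 4 of 6 in TSC2 and 1 of 5 in SRCAP. None of these genes held a DU 145 peak of either list. Of all coding genes of the arms, 2.93% had a dual and 7.998% a formaldehyde peak in or within 5 kb. An absence in so few genes is therefore the common case. Genes with at least 3 peaks were picked out for this count after it was seen. The 50 bases at the summit occurred once in hg19 for every peak in RPL13, RPS2, EIF4A1, ACTG1, MAZ and NDUFB10, whereas 4 of 5 peaks in RAB40C had repeated summits.

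**Figure D4:**
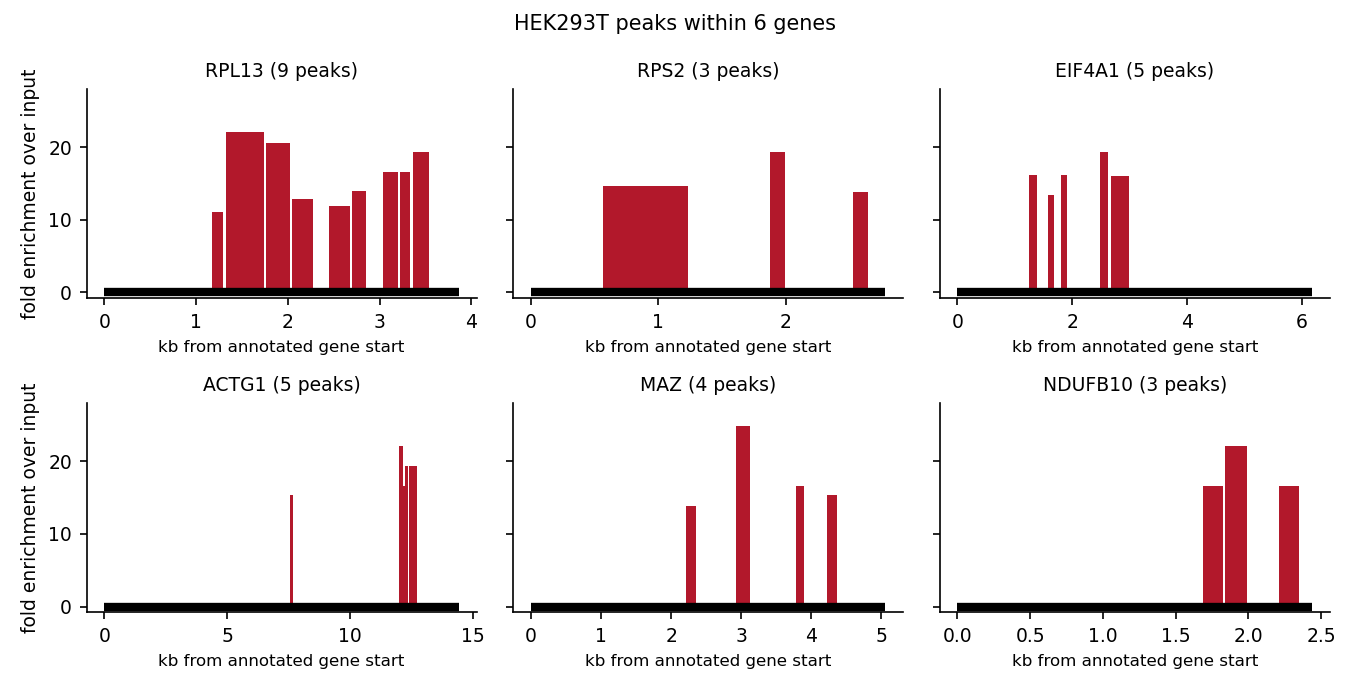
HEK293T peaks in RPL13, RPS2, EIF4A1, ACTG1, MAZ and NDUFB10, drawn to scale from the annotated gene start in kb (x axis), with bar width the peak's length and bar height its fold enrichment over input (y axis). The black line is the gene, and the RPL13 peaks run from 1.17 to 3.54 kb.

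Among lists of genes by function, those of ribosomal proteins and translation factors had a peak most often. The lists were chosen with earlier results of these data known, so this order is a description only. Of all 1913 protein-coding genes of the arms, 264 (13.8%) had a member in the gene or within 5 kb of it, and of the 994 that start in the most gene-dense windows 235 (23.6%) did. Of 17 ribosomal and translation genes, 10 did (58.8%, 36.01 to 78.4). RPL13 and RPS2 had 9 peaks each, EIF4A1 and RPL3L 6 each and EIF5A 3, RPL26 had 2, and RPL23, RPL38, EIF1 and EIF4A3 had 1 each. Genes in this count share peaks. RPL3L, a ribosomal protein of muscle, held none itself. Its nearest peak, 3.02 kb away, lay in MSRB1, and the others counted for it lay at NDUFB10 and RPS2. The highest fold enrichment was 24.85 near EIF4A1, in the peak at the start of CD68, and 22.09 at RPL13. At the genes with 1 peak it was 15.54 for RPL23 (9 tags), 17.09 for EIF1 (18 tags), 15.38 for RPL38 (9 tags) and 12.69 for EIF4A3 (8 tags). The lowest FDR of a counted peak was 0.78% for EIF4A1, 1.09% for RPL13 and 3.05% for EIF1. It was 1.26% for RPS2 and RPL3L, in a peak of NDUFB10, and no peak inside RPS2 had 5% or less. For EIF5A, RPL26, RPL23, RPL38 and EIF4A3 it was 23.83, 26.67, 31.24, 32.44 and 31.23%. None of the 17 had a DU 145 peak of either list within 5 kb, where 2.93% of all coding genes had a dual and 7.998% a formaldehyde peak.

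Of 36 genes of chromatin and transcription, 10 had a member (27.8%, 15.8 to 43.99). Among them were SRCAP with 8 peaks, ZNF598 with 5, MAZ with 4, PHF23 with 3, and ZNF263, SETD1A, a histone H3 lysine methyltransferase, POLR2A, the largest subunit of RNA polymerase II, KDM6B, a histone demethylase, and CHD3, a remodeling ATPase of the NuRD complex, with 1 each. ZNF598 was counted in this list, and not with the ubiquitin genes, although it ubiquitinates collided ribosomes. The fold enrichment was 14.94 with 11 tags at POLR2A and 19.09 with 10 tags at CHD3. Of 37 ubiquitin and proteasome genes, 5 had a member (13.5%, 5.91 to 27.98), near the share of all genes. These were RNF40, a ubiquitin ligase for histone H2B, with 7, FBXL16 with 5, STUB1, a chaperone-linked ubiquitin ligase, with 3, NEURL4 with 3 and KCTD5 with 2.

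The list of telomere maintenance and DNA repair genes was too short to compare its share with that of all coding genes. Of its 13 genes, 2 had a member (15.4%, 4.33 to 42.2), against 13.8% of all coding genes. These were CTC1, a subunit of the CST complex that protects telomeres, with 3 (up to 16.57-fold), and ZNF276 with 4 (up to 16.57-fold). ZNF276 is a zinc finger gene that was counted although it only overlaps the repair gene FANCA. Without it, CTC1 was the only gene of the list with a member. The nearest member was 656 kb from TERF2, which encodes TRF2, 314 kb from TERF2IP, which encodes RAP1, and 2404 kb from ACD, which encodes the shelterin protein TPP1. No member lay within 5 kb of any of 10 HOXB genes, 11 metallothionein genes or 25 type I keratin genes, which are tight clusters of tissue-specific or inducible genes. An absence in 25 genes allows a share of up to 13.3% by the Wilson interval. That interval takes neighbouring genes as independent, which genes of a tight cluster are not, so it is too narrow.

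The members were GC-rich relative to the chromosomes but not relative to the clusters they lay in. The median GC content of the members was 53.6% (52.8 to 54.4), against 45.3% for all tiles, 50% for tiles in the gene-dense windows and 55.5% for tiles in the clusters. In the 3 largest clusters, the members' median was 55.1% against 57.8% of the tiles, 57.6% against 62.5% and 57.0% against 59.4%. The DU 145 dual peaks of the same arms had a median of 49.1% (45.2 to 52.6) and the formaldehyde peaks 29.5% (27.9 to 30.8), which is below the tiles. Taken over 200 bases around the summit, the formaldehyde median was 41.0% and the HEK293T median 54.0%. HEK293T peaks had a median of 54.5% on chromosome 19 and 43.1% on chromosome 13. A CpG-island-like sequence, with at least 50% GC and an observed-to-expected CpG ratio of at least 0.6 over 500 bases, was present in 37 members (10.9%, 8.05 to 14.7), against 2.24% of all tiles and 10.0% of tiles in the clusters. All 37 were in clusters, 37 of 283 there (13.1%), and 0 of 55 members outside clusters had one, which allows a share of up to 6.53%. Among stronger members the share was higher, at 26.3% (16.6 to 39.0) of the 57 with an FDR of 5% or less and 33.3% (18.6 to 52.2) of the 27 with a score of 100 or more. The 37 CpG-island-like members were mostly not at gene starts. Their median distance to a protein-coding gene start was 12197 bases (3292 to 29811), against 3459 (2898 to 4591) for the other members. They included the CPNE7 peak of short tandem units.

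**Figure D5:**
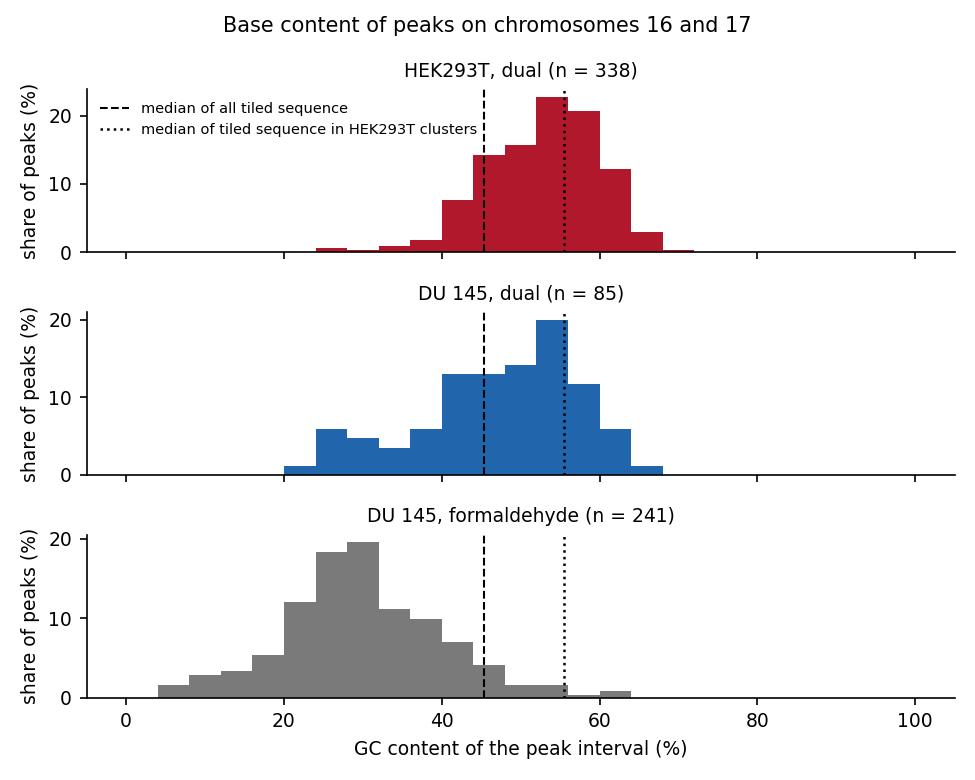
GC content of the peak interval in percent (x axis) as the share of peaks in bins of 4 percentage points (y axis), for HEK293T (n = 338), DU 145 dual (n = 85) and DU 145 formaldehyde peaks (n = 241) of chromosomes 16 and 17. The dashed and dotted lines are the medians of all tiles (45.3%) and of tiles in the HEK293T clusters (55.5%); the HEK293T peaks centre near the latter and the formaldehyde peaks below both.

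The telomeric repeat and polypurine runs were less common in the HEK293T members than in DU 145 dual peaks. The telomeric repeat, at least 2 consecutive CCCTAA or TTAGGG on the plus strand, was in 2 of 338 members (0.592%, 0.162 to 2.13), against 0.00411% of tiles. It was in 9 of 85 DU 145 dual peaks (10.6%, 5.67 to 18.9) and 5 of 241 formaldehyde peaks (2.07%, 0.889 to 4.76). A polypurine run was in 1 member (0.296%), against 0.587% of tiles, and in 10 dual (11.8%) and 3 formaldehyde peaks (1.24%). A G-quadruplex motif, 4 runs of at least 3 G (or C) with loops of 1 to 7 bases, which arrays of 4 or more telomeric repeats also meet, was in 16 members (4.73%, 2.93 to 7.55), against 2.30% of all tiles and 7.40% of tiles in the clusters, and in 9 dual (10.6%) and 6 formaldehyde peaks (2.49%). Of the 27 members with a score of 100 or more, 18.5% held it (8.18 to 36.7). The motif counts refer to these letters within the deposited interval only.

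Most members were weak, small peaks. The fold enrichment, which is the ratio of tags in the peak to the local background, had a median of 13.8 and ran from 2.77 to 33.26. Members held 8 to 616 tags with a median of 11, and 166 of them held 10 or fewer. The values were coarse, with 135 different fold enrichments among 338 peaks and 44 peaks at 16.57, as small numbers of tags allow few values. The FDR, a percent that the peak caller estimates by exchanging ChIP and input, was 5% or less in 57 members (16.9%, 13.2 to 21.2), against 17.8% of the HEK293T list, and its median was 30.1%. Of the DU 145 peaks in the same arms, 45 of 85 dual peaks (52.9%) passed, against 68.3% of that list, and 1 of 241 formaldehyde peaks (0.415%), against 1.91% of that list. Dual peaks had a median fold enrichment of 15.27 with 8 tags, and formaldehyde peaks 15.27 with 7 tags. Members in clusters had a median of 13.81 with 11 tags, and those outside 14.79 with 9 tags. Of the 57 members with an FDR of 5% or less, 86.0% lay in the most gene-dense windows, and of the 45 DU 145 dual peaks that passed 6.67% did.

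The 15 members of highest fold enrichment were led by the HS3ST4 peak at 33.26. At 24.85 were the peaks at SNHG19, CD68, CDK10, MAZ and RAB40C, a GTPase of a ubiquitin ligase complex, with 12 to 19 tags, and at 24.51 the CPNE7 peak with 33 tags. The other 8 had 22.09. They lay in ACTG1, in RPL13, in and at the end of NDUFB10, in MYBBP1A, a nucleolar transcription regulator, and in PDPK1, the kinase that activates AKT. The last 2 were upstream of SLC22A31 and in the non-coding gene LINC01982, 305 kb from CA10, where the 50 bases at the summit occurred 35 times in hg19. Summits that occur more than once belonged to 29 members (8.58%).

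Tags were concentrated in 13 broad peaks, which held 52 to 616 tags and 34.5% of all tags in the members. Their median fold enrichment was 6.23. The broadest, chr17:80317242-80319001 in TEX19, a germ-cell gene, had 616 tags and a fold enrichment of 4.62. Next were peaks of 397 and 245 tags at chr17:41400072-41401201 and chr17:41381551-41382445, with fold enrichments of 2.77 and 4.30, in a cluster of 3 peaks with no protein-coding gene start. A peak in LMF1 at chr16:908478-909977 combined 190 tags with a fold enrichment of 15.15, and the RPS2 peak of 84 tags had 14.62. These peaks were picked by their tags after the values were seen.

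Only 2 of the 338 members had their midpoint in common with a DU 145 peak (0.592%, 0.162 to 2.13), against 5.87% of the HEK293T list and 3.50% of its peaks on the other chromosomes. Both were at interstitial telomeric sequences and were the only members with the telomeric repeat, both overlapped peaks of both DU 145 lists, and neither was in a cluster or a gene-dense window. In the intron of HS3ST4, a heparan sulfate sulfotransferase, the fold enrichment was 33.26 with 32 tags in HEK293T, 89.42 with 66 tags in DU 145 dual and 40.43 with 36 tags in DU 145 formaldehyde. In the intron of CFDP1, a craniofacial development protein, it was 11.92 with 16 tags in HEK293T, 65.69 with 35 tags and 7.83 with 22 tags. The CFDP1 peak in HEK293T had an FDR of 21.6%, and the HS3ST4 peak 1.67%. The tags are not scaled to depth. None of the 283 members in clusters overlapped a DU 145 peak, which allows a share of up to 1.34%.

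The strongest DU 145 peaks of the same arms differed in sequence from most HEK293T members, but the 2 shared sites were among them. Within these arms, HS3ST4 had the highest fold enrichment in both dual cross-linked lists, at 33.26 in HEK293T and 89.42 in DU 145. HEK293T peaks of the other chromosomes reached 44.18. The 5 DU 145 dual peaks of highest fold enrichment all held the telomeric repeat. They were those in HS3ST4 and CFDP1, a pair 31 to 32 kb upstream of ZCCHC14 at 56.3 and 45.04, and a peak 160 kb upstream of CNTNAP4 at 51.79, and no HEK293T member lay at the last 3. The 5 of the DU 145 formaldehyde list were short, with 7 or 8 tags and 18.9 to 32.7% GC. Peaks in MINK1 and upstream of NPIPB6 had 49.63. A peak upstream of MED9 had 46.79 and a peak upstream of GLG1 had 43.43, the value also of a peak with the telomeric repeat upstream of ZCCHC14.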

How the data were processed

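UCHL1 ChIP-seq peak lists of HEK293T and DU 145 cells were analysed, 1 ChIP library per condition called against its input. The authors aligned 50-base SOLiD reads to hg19 and called peaks with MACS, given as version 1.4.2 in the submitters' processing notes. The tags of a peak are a count deposited without scaling. The score deposited by the authors is 10 times the −log10 of the MACS p. The fold enrichment is a ratio to the local background, and the FDR a percent, both as deposited. Reads per single library are not given in the sources used here, so the precision given is that of counts of peaks.

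Peaks were located in GENCODE 44 mapped to GRCh37, and sequences were read from the GRCh37 assembly, by midpoint unless stated. A gene's start is its outermost annotated position. Shares have 95% Wilson intervals and medians 95% order-statistic intervals. With 1 library per condition no test was run. Named were the 15 members of highest fold enrichment, the genes starting near members of the 3 largest clusters, the 10 strongest members near a gene start, genes of the function lists with a member within 5 kb, members overlapping DU 145 peaks, and the 5 strongest peaks of each DU 145 list in the same arms. The members, the lists and the named-gene rule were chosen with earlier results of these data known. Windows, clusters, annotation, overlap, base content and score or FDR limits were varied, and summits of repeated sequence were left out as an alternative chosen after seeing the data. The steps were tested on simulated data. Software was samtools 1.23.1, pysam 0.24.0, matplotlib 3.10.9, numba 0.67.0, scipy 1.17.1, pandas 2.3.3, numpy 2.4.6 and Python 3.11.15. The labels give 1% formaldehyde for both protocols, and the study's methods give a lower amount in dual cross-linking. Some genes and sequences that the naming rule covers are not reported here.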

Additional observations from a re-analysis of the deposited data

How the results depend on the processing

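Of the values under other settings, 38 stayed within the interval of the reported value, or within 1.5 times a reported count, and 37 moved further, and the cause of a move was not tested unless the setting itself changes the quantity. At an FDR of 5% or less, 57 members were left. Of these 63.2% were in clusters, 7.02% were intergenic, 26.3% were CpG-island-like, 8.77% held a G-quadruplex motif, and their median fold enrichment was 16.03. The share of DU 145 dual peaks in the most gene-dense windows was then 6.67%, and the 1 DU 145 formaldehyde peak left had a GC content of 49.4% and gave a share of 0%. At a score of at least 100, 27 members were left. Of these 77.8% were in the most gene-dense windows, 40.7% in clusters, 33.3% in exons, 63.0% in introns, 3.70% intergenic, 7.41% within 1 kb of a gene start, 33.3% CpG-island-like and 18.5% with a G-quadruplex motif, 3.70% overlapped a DU 145 peak, and the medians were 54.8% GC and a fold enrichment of 15.33. The DU 145 values were 10.0% (dual) and 26.5% (formaldehyde) in the most gene-dense windows, and a GC content of 43.4% and 26.4%. Fewer peaks lie close together when peaks are left out. Counting starts of all annotated genes gave 83.7% of members in the densest windows. Clusters with gaps up to 50 kb held 72.5% and up to 250 kb 92.0%. With protein-coding genes only, 33.7% were exonic and 21.0% intergenic. Within 5 kb of a gene start were 55.6%, and within 1 kb of any coding-gene transcript start 37.9%. Over 1000 bases the GC content was 55.1% for members and 43.4% for DU 145 formaldehyde peaks, and around the summit 41.0% for the latter. A GC content of at least 55% with a CpG ratio of at least 0.65 left 5.92% CpG-island-like, and loops of up to 12 bases gave 9.47% with a G-quadruplex motif. Without members of repeated summit sequence, chosen after seeing the data, 90.9% were in the most gene-dense windows, 11.0% were near a gene start and the GC content was 53.4%. No paired analysis was possible because each condition had 1 library. The small number of tags in most peaks limits the precision of each fold enrichment.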
